A study of Mus musculus with 15 samples.

Results

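Whole kidneys of Hyp mice treated with AAV-cFGF23 were compared with kidneys of Hyp mice that received PBS, by RNA sequencing of 1 library per mouse. The comparison used the 10 libraries whose titles name cFGF23-Hyp (5 mice) or Hyp (5 mice), out of 15 in the series, and 27807 genes with a name in the deposited count table. The cFGF23-Hyp mice carried the genotype Phex_KO and received an adeno-associated virus (AAV) encoding cFGF23 by vein at 4 weeks of age, at 1e12 vector genomes per mouse. The Hyp mice carried the same genotype, which the design text names Hyp-Duk, and received PBS. Both groups were killed at 4 months of age, 3 months after the injection in the treated group. The other 5 libraries are titled WT and received PBS, and they serve here only to show levels. No group received a vector without cFGF23, so what the vector does and what cFGF23 does cannot be told apart. The promoter that drives cFGF23 is not given in the sources used here, and bulk RNA cannot separate fewer cells of a type from less RNA per cell.

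FGF23 is a hormone made by bone cells that binds FGF receptors together with the co-receptor klotho. In the kidney it lowers the sodium-phosphate cotransporters of the proximal tubule and the synthesis of active vitamin D. Loss of the endopeptidase PHEX leaves intact FGF23 high, and the carboxy-terminal fragment cFGF23 can compete with the intact hormone at its receptor complex. Interferon-stimulated genes, which occupy much of the account below, are a separate programme: type I interferons act through the receptor chains IFNAR1 and IFNAR2 and a transcription factor that contains STAT2 and IRF9 and binds a DNA motif in the promoters of antiviral genes.

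Total counts in named genes ran from 13083632 to 18044400 per library. Phex itself had 0 CPM (read counts scaled to a common library size) in the 5 treated kidneys and at most 0.207 CPM in the Hyp kidneys, so kidney RNA could not check the genotype. The libraries carried the RNA of kidney: the 30 proximal tubule markers summed to 54130 to 77038 CPM in cFGF23-Hyp and 50607 to 60851 CPM in Hyp, and none of them was at 0 in all libraries. Across the 10 libraries the Y-linked Ddx3y was at 52.8 to 76.5 CPM and Xist reached no more than 0.631 CPM.

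Libraries that stood apart bear on every result. The library labelled cFGF23-Hyp_3 scored 75.22 on the leading principal component and the other 9 scored -16.28 to -0.84. Fewer genes were detected in it than in any of them (20652), its mitochondrial share of counts was lowest (6.635%, against 8.678% to 11.33% in the others), and its deviations from the mean were negatively related to gene length (Spearman's rho = -0.417 across genes). The library labelled cFGF23-Hyp_5 lay at 45.56 on the second component, where Hyp_4 lay lowest at -28.51. On a scale shared by all 15 libraries, cFGF23-Hyp_5 had 55.5 CPM of Ttr, the transthyretin gene, within the 44.3 to 79.4 CPM of WT_1 to WT_4 and below every other cFGF23-Hyp library, while WT_5 had 463 CPM. The synaptic vesicle gene Synpr was at 1.25, 2.97, 1.95 and 0.28 CPM in cFGF23-Hyp_1 to cFGF23-Hyp_4 and 42.7 CPM in cFGF23-Hyp_5, against 0.308 to 1.31 CPM in Hyp. On the joint scale WT_1 to WT_4 had 21.8 to 40.6 CPM of Synpr and WT_5 had 0.542 CPM, within the Hyp range, so WT_5 departs from its group in the opposite direction to cFGF23-Hyp_5. The library titled WT_5 carries the labels Phex_KO and Hyp beside its title, so WT ranges below are those of WT_1 to WT_4. Results are given with all 10 libraries, and main results also without cFGF23-Hyp_5 or cFGF23-Hyp_3. Since cFGF23-Hyp_5 was singled out in an earlier analysis of these genes, calls gained by leaving it out follow partly from that choice.

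With all 10 libraries no gene passed. Of 15376 genes tested with edgeR's quasi-likelihood test, 0 (0%) had an adjusted p below 0.05, while 1303 (8.47%) had an unadjusted p below 0.05. The lowest adjusted p was 0.0988, for Ces1g. Limma-voom also called 0 genes, and DESeq2 called 64 higher and 35 lower (0.417% and 0.228% of 15358). The authors' deposited table lists 61 genes higher and 33 lower at an adjusted p below 0.05. Without cFGF23-Hyp_5, edgeR called 39 genes higher and 4 lower (0.25% and 0.0256% of 15601). Without cFGF23-Hyp_3 it called 0 higher and 2 lower, Ces1g and Tcf24 (0% and 0.0128% of 15600), and without both it called 47 higher and 4 lower (0.297% and 0.0253% of 15836).

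The genes that stood out by size were interferon-stimulated genes, which were high in cFGF23-Hyp_1 to cFGF23-Hyp_3, less high in cFGF23-Hyp_4 and mostly at or below Hyp levels in cFGF23-Hyp_5. Of the 39 genes that rose without cFGF23-Hyp_5, 32 belong to the 4 lists for interferon sensors and factors, antiviral effectors, OAS genes and interferon-inducible GTPases. EdgeR called these genes without cFGF23-Hyp_5 and 0 of them with it. The positions of treated libraries given here follow partly from that choice. In all 39, cFGF23-Hyp_1 to cFGF23-Hyp_4 lay above all 5 Hyp libraries. In 36 of the 39, cFGF23-Hyp_5 lay at or below the highest Hyp library, in 15 of them below the lowest, and in 36, cFGF23-Hyp_4 was the lowest of the other 4. The rise exceeded 2-fold in 38 genes and 8-fold in 12. WT_5 lay above all of WT_1 to WT_4 in all 39, and cFGF23-Hyp_5 lay within or below the range of WT_1 to WT_4 in 34. Shares over all genes tested were not computed for these positions, so the counts describe only the 39. With all 10 libraries, 0 of the 83 tested members of the 4 lists were called by edgeR and 31 by DESeq2, all higher.

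**Figure D1:**
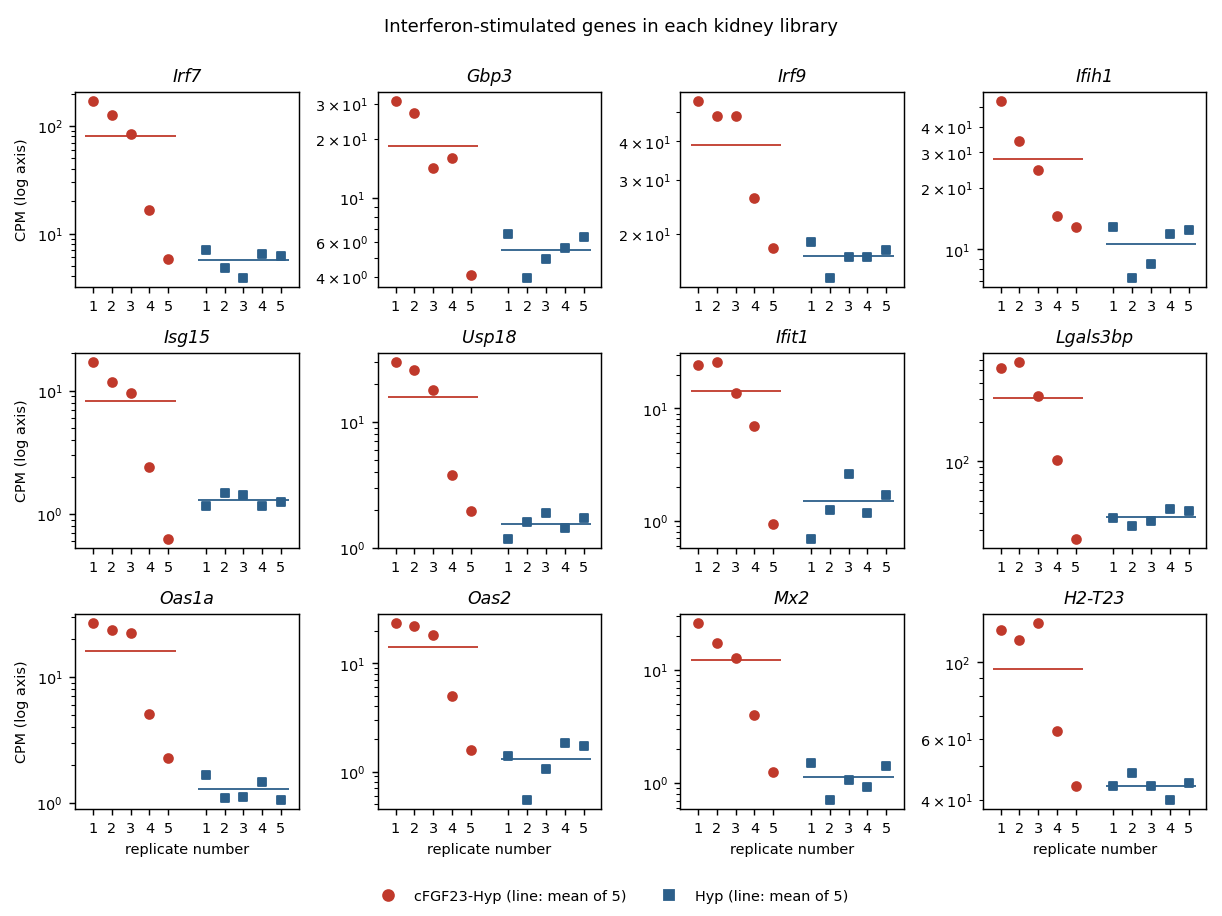
Levels of 12 interferon-stimulated genes in CPM (log axes that differ between panels) against replicate number, with cFGF23-Hyp as circles and Hyp as squares, and a line at each group's mean of 5. For Irf7 the treated kidneys run from 170 CPM in cFGF23-Hyp_1 to 5.8 CPM in cFGF23-Hyp_5, and the Hyp kidneys lie between 3.86 and 7.11 CPM.

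The upstream part of the pathway was uneven. Transcripts of the interferon receptor chains did not stand apart: Ifnar1 averaged 45.5 ± 2.07 CPM in cFGF23-Hyp and 49 ± 4.41 CPM in Hyp, and Ifnar2 16.2 ± 2.26 and 17.4 ± 2.07 CPM (SD, n = 5 each; edgeR adjusted p = 0.676 and 0.787). Irf3, a factor that starts interferon gene transcription and is itself little induced, averaged 62.7 ± 10 CPM in cFGF23-Hyp and 63.8 ± 2.09 CPM in Hyp. Irf1, a target shared with interferon gamma, averaged 10.1 ± 0.997 CPM in cFGF23-Hyp and 12.7 ± 1.9 CPM in Hyp (log2 change -0.34 ± 0.13, SE; edgeR adjusted p = 0.511). Ifng, the interferon gamma gene, had 0 counts in each cFGF23-Hyp library and 0 to 3 counts in the Hyp libraries, too few to test.

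The genes of the signalling factor itself were higher in part of the treated group. Irf9, the DNA-binding subunit, was at 54, 48.3, 48.5, 26.2 and 18 CPM in cFGF23-Hyp and 14.4 to 18.8 CPM in Hyp, so 4 treated libraries lay above the Hyp range and the fifth within it. Irf9 rose by 1.39 ± 0.18 without cFGF23-Hyp_5 (edgeR adjusted p = 0.0081) and had a log2 change of 1.21 ± 0.26 with it (adjusted p = 0.281). Stat2 passed only with cFGF23-Hyp_3 also left out, at 1.19 ± 0.21 (edgeR adjusted p = 0.0487).

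Irf7, the factor that amplifies interferon production, had the largest change of these genes. It was at 170, 127, 84.9, 16.7 and 5.8 CPM in cFGF23-Hyp_1 to cFGF23-Hyp_5, against 7.11, 4.76, 3.86, 6.41 and 6.25 CPM in Hyp. Its log2 change was 3.84 ± 0.73 with all libraries (SE, edgeR adjusted p = 0.223) and 4.14 ± 0.52 without cFGF23-Hyp_5 (adjusted p = 0.0081). The RNA sensor gene Ifih1 (MDA5) was at 53.5, 33.9, 24.5, 14.6 and 12.9 CPM in cFGF23-Hyp and 7.22 to 12.8 CPM in Hyp. Here all 5 treated libraries lay above the Hyp range, the fifth by a small margin, and the adjusted p was 0.346 with all libraries and 0.0996 without cFGF23-Hyp_5. Zbp1, a sensor of Z-form nucleic acids, was at 4.43, 3.7, 3.48, 1.75 and 0.549 CPM in cFGF23-Hyp, against 0.328 to 1.06 CPM in Hyp. Over the list of sensors and factors, 13 of 20 tested genes were positive with a median log2 change of 0.69, against a median of 0.01 over all genes tested, and 5 of 21 rose without cFGF23-Hyp_5.

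Among antiviral effector genes, Isg15, a ubiquitin-like protein attached to other proteins, was at 17, 11.8, 9.58, 2.38 and 0.627 CPM in cFGF23-Hyp_1 to cFGF23-Hyp_5, against 1.17, 1.48, 1.43, 1.17 and 1.24 CPM in Hyp. The first 4 treated kidneys lay above, and the fifth below, all Hyp kidneys. Usp18, which removes ISG15 from proteins and dampens interferon receptor signalling, was at 29.8, 25.6, 17.8, 3.78 and 1.96 CPM in cFGF23-Hyp and 1.17 to 1.87 CPM in Hyp, with no overlap between the groups. Its log2 change was 3.34 ± 0.64 with all libraries (SE, edgeR adjusted p = 0.223) and 3.63 ± 0.48 without cFGF23-Hyp_5 (adjusted p = 0.0081). Ifit1, which binds foreign RNA ends, was at 24.5, 25.8, 13.7, 7.01 and 0.941 CPM in cFGF23-Hyp and 0.69 to 2.62 CPM in Hyp. Lgals3bp, a secreted glycoprotein, was the most abundant of these at 520, 577, 319, 102 and 25.5 CPM in cFGF23-Hyp, against 32.1 to 43.3 CPM in Hyp. The mouse dynamin-like GTPase gene Mx2 was at 26.1, 17.2, 12.8, 3.99 and 1.25 CPM in cFGF23-Hyp and 0.711 to 1.52 CPM in Hyp. Of the 38 tested effectors, 35 were positive with a median log2 change of 1.02, and 18 of 38 rose without cFGF23-Hyp_5. Not every classical target followed as clearly. Rsad2 (viperin) was at 21, 14.7, 18.1, 14.9 and 7.69 CPM in cFGF23-Hyp and 11.3 to 15.8 CPM in Hyp. Its values in cFGF23-Hyp_1 and cFGF23-Hyp_3 lay above the Hyp range and that in cFGF23-Hyp_5 below it. The edgeR adjusted p was 0.814 with all libraries, where no gene passed. The chemokine gene Cxcl10 averaged 1.14 ± 0.278 CPM in cFGF23-Hyp and 1.04 ± 0.298 CPM in Hyp (SD, n = 5 each). Its edgeR adjusted p was 0.863 with all libraries and 0.933 without cFGF23-Hyp_5.

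The OAS list, mostly oligoadenylate synthetases, enzymes activated by double-stranded RNA, had the highest median. Over 8 tested genes it was 2.71 with 7 positive, and 6 of 8 rose without cFGF23-Hyp_5. Oas1a was at 26.7, 23.7, 22.3, 5.11 and 2.27 CPM in cFGF23-Hyp_1 to cFGF23-Hyp_5, against 1.66, 1.09, 1.12, 1.48 and 1.06 CPM in Hyp, with no overlap. Its log2 change was 3.65 ± 0.60 (SE, edgeR adjusted p = 0.223), and DESeq2 gave an adjusted p of 3.8e-05. Oas2 was at 23.6, 22, 18.4, 5.04 and 1.57 CPM in cFGF23-Hyp, against 0.547 to 1.85 CPM in Hyp. Oas1a and Oas1g are close paralogs, so reads that fit both could be split between them.

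The interferon-inducible GTPases, which act on the membranes of intracellular pathogens, had a median log2 change of 0.79 over 17 genes with 14 positive, and 3 of 17 rose without cFGF23-Hyp_5. Irgm1 was at 171, 154, 98.6, 53 and 32.9 CPM in cFGF23-Hyp, against 33.6, 32.8, 34.5, 34.5 and 37.4 CPM in Hyp. Gbp3 was at 30.9, 26.8, 14.2, 16 and 4.08 CPM in cFGF23-Hyp and 3.94 to 6.56 CPM in Hyp. In contrast Gbp2, also of the guanylate-binding protein family, averaged 5.16 ± 0.886 CPM in cFGF23-Hyp and 5.32 ± 1.46 CPM in Hyp (SD, n = 5 each; edgeR adjusted p = 0.954 with all libraries). Igtp did not overlap between the groups, at 11.9 to 49.6 CPM in cFGF23-Hyp and 6.89 to 11.2 CPM in Hyp, but its span overlaps that of Irgm2 on chromosome 11 in the deposited coordinates, so their reads are hard to tell apart.

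Antigen presentation by MHC class I lay higher by a smaller amount. H2-T23, which encodes the Qa-1 molecule, was at 124, 116, 130, 63.1 and 44 CPM in cFGF23-Hyp_1 to cFGF23-Hyp_5, against 43.8, 47.7, 43.9, 40 and 44.7 CPM in Hyp. It rose by 1.30 ± 0.18 without cFGF23-Hyp_5 (SE, edgeR adjusted p = 0.0098), the 1 of 16 list members to do so. All 16 were positive with all libraries (median 0.40), and 12 of 16 without cFGF23-Hyp_3 (median 0.21). H2-K1 was at 36.3, 38.3, 77.8, 33.5 and 31.1 CPM in cFGF23-Hyp, above the 22.3 to 30 CPM of Hyp in every library, with cFGF23-Hyp_3 far above the rest.

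**Figure D2:**
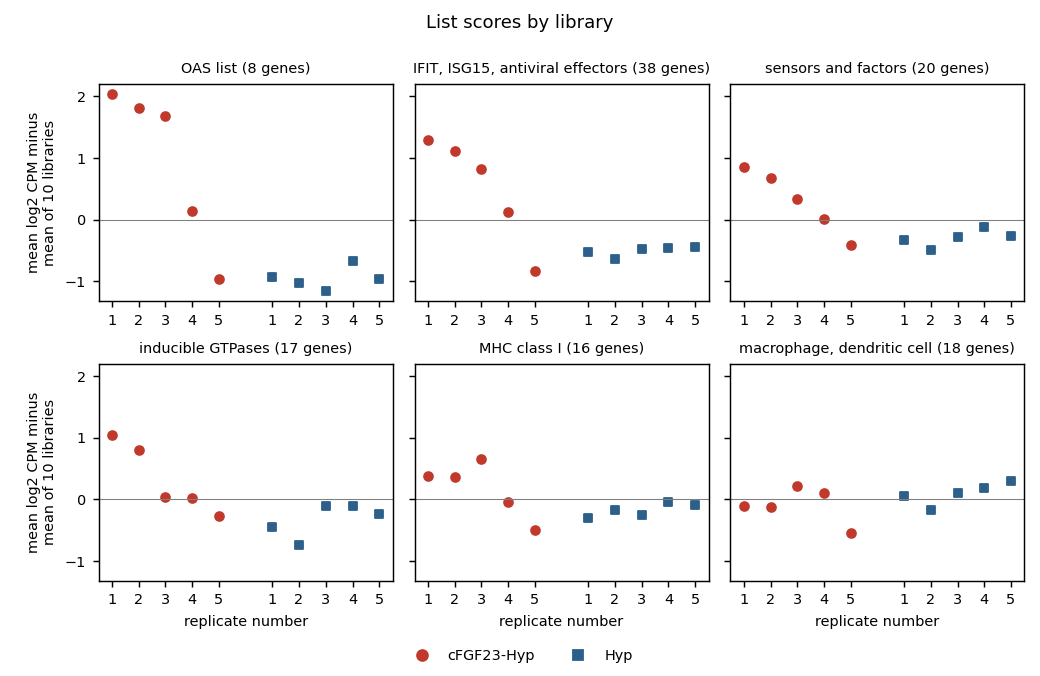
Score of 6 gene lists in each library, the mean over list members of log2 CPM minus the gene's mean over the 10 libraries, against replicate number (cFGF23-Hyp as circles, Hyp as squares). OAS scores are 2.04, 1.81, 1.68, 0.15 and -0.96 in cFGF23-Hyp and -1.16 to -0.66 in Hyp, while macrophage scores overlap.

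Summed markers of immune cells overlapped between the groups, and their part in the interferon genes was not tested. The 24 macrophage and dendritic cell markers summed to 121 to 191 CPM in cFGF23-Hyp and 179 to 192 CPM in Hyp, lowest in cFGF23-Hyp_5. Of 18 tested, 4 were positive with a median of -0.22, which was -0.06 without cFGF23-Hyp_5. The Fc receptor gene Fcgr1 went the other way, at 1.81, 2.02, 3.48, 1.4 and 0.706 CPM in cFGF23-Hyp and 0.678 to 1.38 CPM in Hyp (1.08 ± 0.30 without cFGF23-Hyp_5, SE; edgeR adjusted p = 0.456). The 24 T and NK cell markers summed to 8.79 to 10.9 CPM in cFGF23-Hyp and 9.25 to 12 CPM in Hyp, with 21 of them, Cd3e, Cd8a and Gzmb included, under the count filter. MHC class II genes had a median of -0.08 with 3 of 10 positive, and -0.22 without cFGF23-Hyp_3.

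The promoters of the risen genes were read to see whether they hold the interferon-stimulated response element, searched as GAAA, 2 bases of any kind and GAAA on both strands in windows of 300 bases (250 before to 50 after the gene start) from RefSeq on GRCm38.p6. Of the 39 risen genes, 28 matched a window by symbol and 14 of these (50%) held the motif, as did 12 of 22 members of the interferon lists (54.5%). The motif stood in 3.75% of the 11161 tested genes with a window and in 3.44% of all 32851 windows. A match describes the letters only. Of the 39 risen genes, 32 belong to the 4 interferon lists, so a share above that of all genes follows partly from which genes these are. Stretches of 60 bases from 6 risen genes are shown, 5′ to 3′ on the gene's strand with every motif match in capitals, because they carry the motif in different forms: overlapping copies in Isg15, Oas1a, Irgm1 and Bst2, and copies on the other strand in Ifit1 (apart) and Gbp3 (overlapping).
Isg15 (chr4:156200862-156200921): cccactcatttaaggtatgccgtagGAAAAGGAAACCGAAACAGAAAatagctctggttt
Ifit1 (chr19:34640760-34640819): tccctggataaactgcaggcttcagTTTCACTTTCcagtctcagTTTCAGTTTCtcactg
Oas1a (chr5:120907511-120907570): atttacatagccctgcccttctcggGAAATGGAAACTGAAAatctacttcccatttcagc
Irgm1 (chr11:48871416-48871475): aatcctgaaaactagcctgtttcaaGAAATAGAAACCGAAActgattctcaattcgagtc
Bst2 (chr8:71537568-71537627): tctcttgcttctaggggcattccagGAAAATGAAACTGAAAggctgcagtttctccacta
Gbp3 (chr3:142559974-142560033): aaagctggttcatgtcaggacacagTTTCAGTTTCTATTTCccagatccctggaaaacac

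A second group of genes separated all 5 libraries labelled cFGF23-Hyp from all 5 Hyp libraries, cFGF23-Hyp_5 included. On the scale of all 15 libraries, cFGF23-Hyp_5 lay within the range of WT_1 to WT_4 for Ces1g, Nat8f2, Etv4, Dnase1, Susd2 and Cyp2d12. It lay above that range for Tcf24 and below it for Sox17. Whether the labels of cFGF23-Hyp_5 and WT_5 are right was not tested. Among the 15376 genes tested, 138 (0.898%) lay wholly above and 152 (0.989%) wholly below. In the 4 interferon lists 4 of 83 members lay wholly above and 0 below. Levels in WT, given for scale in the next paragraphs, are on the scale of all 15 libraries. One of the gene lists holds 25 genes that marked Hyp against wild type in an earlier analysis, Ces1g among them. For members of that list, a distance between WT and Hyp levels follows from the choice of genes. Of its 25 genes, 4 lay wholly above and 4 wholly below Hyp. Members other than Ces1g are not marked below, so WT levels there give scale only. The same Hyp libraries are the reference of the study's other comparison, Hyp against WT, so differences of cFGF23-Hyp and of WT from Hyp are not independent of each other.

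**Figure D3:**
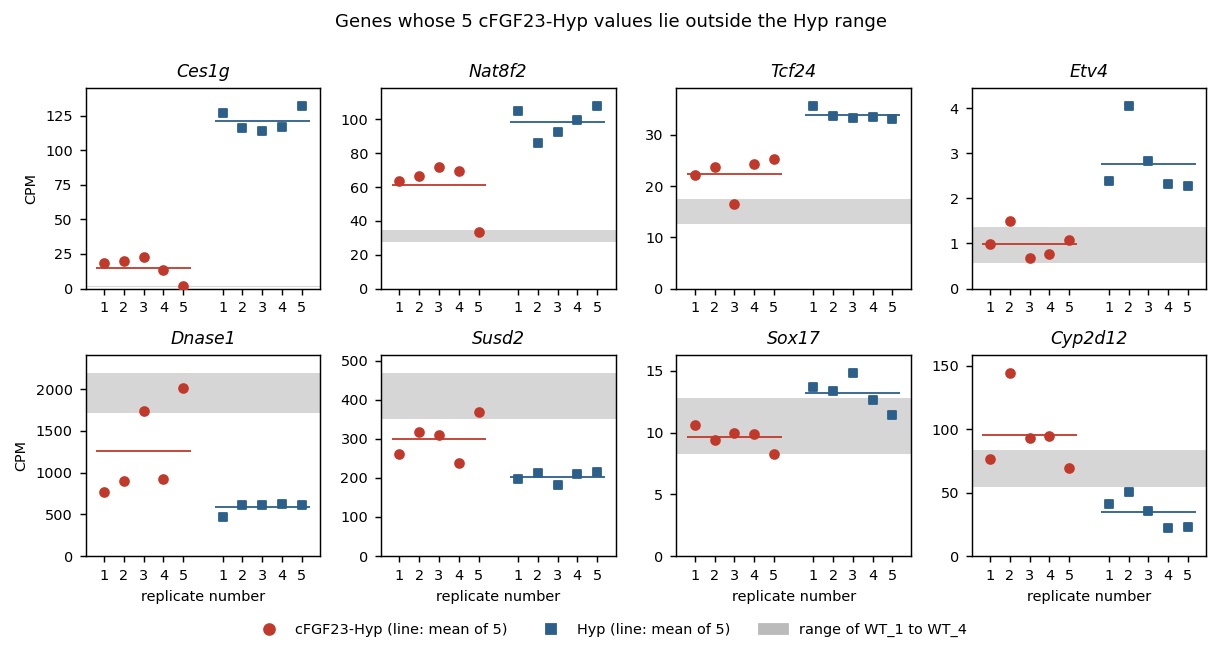
Levels of 8 genes in CPM on the scale of all 15 libraries (axes start at 0) against replicate number, with cFGF23-Hyp as circles, Hyp as squares, a line at each group's mean of 5 and a grey band for the range of WT_1 to WT_4. Ces1g is at 2.01 to 22.9 CPM in cFGF23-Hyp and 114 to 132 CPM in Hyp.

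Ces1g, a carboxylesterase gene of lipid and drug ester hydrolysis (ENSMUSG00000057074, chromosome 8, 94028997 to 94063936 in the deposited coordinates), had the largest separation. It was at 18.5, 19.9, 23.1, 13.5 and 2.04 CPM in cFGF23-Hyp_1 to cFGF23-Hyp_5, against 129, 118, 116, 119 and 133 CPM in Hyp. On the joint scale WT_1 to WT_4 were at 1.07 to 2.01 CPM and WT_5 at 9.59 CPM, so cFGF23-Hyp_1 to cFGF23-Hyp_4 lay between the Hyp and WT ranges and cFGF23-Hyp_5 at the upper end of the WT range. The log2 change was -2.99 ± 0.40 with all libraries (SE, edgeR adjusted p = 0.0988). Ces1g fell by 2.72 on the log2 scale without cFGF23-Hyp_5 (SE 0.14, adjusted p = 9.5e-06) and by 3.17 without cFGF23-Hyp_3 (SE 0.40, adjusted p = 0.0376). Its neighbours on chromosome 8, Ces1f and Ces1d, did not share this: Ces1f averaged 1075 ± 165 CPM in cFGF23-Hyp and 971 ± 49.2 CPM in Hyp, and Ces1d 388 ± 76.1 and 426 ± 33.3 CPM (SD, n = 5 each). These genes are paralogs, so reads that fit several of them could be split.

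Nat8f2, of a family related to N-acetyltransferases, was at 64.9, 67.5, 72.3, 70.7 and 34 CPM in cFGF23-Hyp_1 to cFGF23-Hyp_5, against 106, 87.2, 94.4, 101 and 109 CPM in Hyp. The joint scale put WT_1 to WT_4 at 27.7 to 34.5 CPM, WT_5 at 53.9 CPM and cFGF23-Hyp_5 at 33.5 CPM, inside the range of WT_1 to WT_4. Nat8f2 fell by 0.53 without cFGF23-Hyp_5 (SE 0.09, edgeR adjusted p = 0.0294), and its change with all libraries was -0.69 ± 0.17 (adjusted p = 0.344). The paralog Nat8f1 averaged 332 ± 49.7 CPM in cFGF23-Hyp and 290 ± 35.9 CPM in Hyp. Tcf24, a helix-loop-helix factor gene, was at 22.6, 24, 16.7, 24.7 and 25.6 CPM in cFGF23-Hyp, against 36.2, 34.2, 33.8, 34.1 and 33.6 CPM in Hyp. It fell by 0.51 on the log2 scale without cFGF23-Hyp_3 (SE 0.06, edgeR adjusted p = 0.0376) and by 0.64 without cFGF23-Hyp_5 (SE 0.11, adjusted p = 0.0482), while WT_1 to WT_4 were at 12.7 to 17.5 CPM and WT_5 at 23.3 CPM.

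Higher in every treated library was Cyp2d12, a cytochrome P450 gene, at 78.2, 146, 93.3, 95.7 and 70 CPM in cFGF23-Hyp and 41.7, 50.7, 36.1, 22.8 and 23.2 CPM in Hyp. Its log2 change was 1.47 ± 0.25 with all libraries (SE, edgeR adjusted p = 0.223; DESeq2 adjusted p = 3.8e-05), and it rose by 1.56 ± 0.25 without cFGF23-Hyp_5 (adjusted p = 0.0302). On the joint scale WT_1 to WT_4 had 54.3 to 83.8 CPM of Cyp2d12 and WT_5 had 84.7 CPM. There cFGF23-Hyp_2, cFGF23-Hyp_3 and cFGF23-Hyp_4, at 144, 92.7 and 94.4 CPM, lay above these WT values. The values of cFGF23-Hyp_1 and cFGF23-Hyp_5, 76.8 and 69 CPM, lay within the range of WT_1 to WT_4. The related Cyp2d9 averaged 362 ± 78.1 CPM in cFGF23-Hyp and 374 ± 32.4 CPM in Hyp (SD, n = 5 each). Dnase1, which encodes a secreted endonuclease, was at 777, 906, 1747, 935 and 2040 CPM in cFGF23-Hyp_1 to cFGF23-Hyp_5, against 470, 622, 627, 629 and 618 CPM in Hyp. The 2 highest treated values are those of cFGF23-Hyp_3 and cFGF23-Hyp_5, while WT_1 to WT_4 were at 1712 to 2192 CPM and WT_5 at 1258 CPM. The log2 change of Dnase1 was 1.11 ± 0.25 (SE, edgeR adjusted p = 0.295; DESeq2 adjusted p = 0.0056), and 0.56 ± 0.11 without cFGF23-Hyp_3 and cFGF23-Hyp_5 (edgeR adjusted p = 0.0688). Susd2, a membrane protein gene, was at 242 to 375 CPM in cFGF23-Hyp and 186 to 219 CPM in Hyp. Susd2 had a log2 change of 0.56 ± 0.11 (SE, edgeR adjusted p = 0.253). For Ftcd, an enzyme of histidine breakdown, the separation was thin: cFGF23-Hyp ran from 22.4 to 58.9 CPM and Hyp from 15.9 to 22.3 CPM. The highest treated value of Susd2 and of Ftcd was that of cFGF23-Hyp_5. On the joint scale it had 370 CPM of Susd2, against 239 to 318 CPM in cFGF23-Hyp_1 to cFGF23-Hyp_4. WT_1 to WT_4 were at 350 to 468 CPM and WT_5 at 301 CPM. For Ftcd these levels were 58, 22.1 to 34.5, 52.5 to 62.5 and 37.1 CPM, in the same order.

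Among genes of FGF receptor signalling, 2 of 33 lay wholly below Hyp, Etv4 and Flrt3, and 0 wholly above. Over all genes tested these shares were 0.989% and 0.898%, and 2 genes are too few for a statement about the list. Etv4, a transcription factor gene induced by the ERK branch of this pathway, was at 0.999, 1.51, 0.678, 0.771 and 1.1 CPM in cFGF23-Hyp_1 to cFGF23-Hyp_5, against 2.42, 4.1, 2.87, 2.34 and 2.3 CPM in Hyp. All treated libraries lay below all Hyp libraries, while WT_1 to WT_4 were at 0.575 to 1.36 CPM and WT_5 at 0.704 CPM. The log2 change was -1.45 ± 0.26 (SE, edgeR adjusted p = 0.223; DESeq2 adjusted p = 0.0018), and edgeR's adjusted p without cFGF23-Hyp_5 was 0.0922. Flrt3, a membrane protein gene that interacts with FGF receptors, was at 1.56, 0.504, 1.36, 1.68 and 0.157 CPM in cFGF23-Hyp, against 2.14, 1.91, 1.75, 2.53 and 1.95 CPM in Hyp. The gap is narrow, and its change was -0.96 ± 0.41 (SE, edgeR adjusted p = 0.557). The related Etv5 overlapped, with 20 to 33.5 CPM in cFGF23-Hyp and 28.5 to 42.2 CPM in Hyp (-0.44 ± 0.16, adjusted p = 0.487). The feedback phosphatase gene Dusp6 was at 44.6 to 75.4 CPM in cFGF23-Hyp and 63 to 87 CPM in Hyp, and the feedback inhibitor gene Spry4 at 10 to 14 and 13.7 to 17.8 CPM (adjusted p = 0.616 and 0.538). Fgf10, a growth factor gene, averaged 4.56 ± 0.756 CPM in cFGF23-Hyp and 7.12 ± 1.06 CPM in Hyp (SD, n = 5 each). Its log2 change was -0.65 ± 0.16 (edgeR adjusted p = 0.330; DESeq2 adjusted p = 0.0313). The receptor genes Fgfr1 and Fgfr4 had log2 changes of -0.10 ± 0.10 and 0.08 ± 0.06. In the list of 33 tested receptors and feedback genes, 10 were positive and the median was -0.13, which was -0.06 without cFGF23-Hyp_3 and -0.02 (15 of 34 positive) without cFGF23-Hyp_3 and cFGF23-Hyp_5, and 0 were called by edgeR in any of the 4 library sets. Egr1, an immediate target of ERK, spread widely within both groups (7.93 to 81.3 CPM in cFGF23-Hyp and 6.17 to 76.2 CPM in Hyp).

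Klotho and the phosphate transporters did not pass the test in either direction, and they did not move one way. Kl was at 820, 891, 640, 709 and 985 CPM in cFGF23-Hyp_1 to cFGF23-Hyp_5, against 623, 657, 638, 634 and 615 CPM in Hyp. Only cFGF23-Hyp_3 among the treated kidneys fell inside the Hyp range, while WT_1 to WT_4 were at 789 to 981 CPM and WT_5 at 826 CPM. The log2 change of Kl was 0.35 ± 0.11 with all libraries (SE, edgeR adjusted p = 0.440), 0.43 ± 0.09 without cFGF23-Hyp_3 (adjusted p = 0.209) and 0.27 ± 0.10 without cFGF23-Hyp_5 (adjusted p = 0.638). Slc34a1, the main phosphate cotransporter of the proximal tubule, was at 4030, 4668, 4799, 3829 and 4697 CPM in cFGF23-Hyp, against 3474, 3676, 3339, 3491 and 3877 CPM in Hyp. The groups overlapped by the lowest treated and the highest Hyp library, and the change was 0.30 ± 0.10 (edgeR adjusted p = 0.441; DESeq2 adjusted p = 0.0605). The second renal cotransporter, Slc34a3, was at 43.7 to 65.5 CPM in cFGF23-Hyp and 39.8 to 50.8 CPM in Hyp (0.32 ± 0.12, edgeR adjusted p = 0.508).

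**Figure D4:**
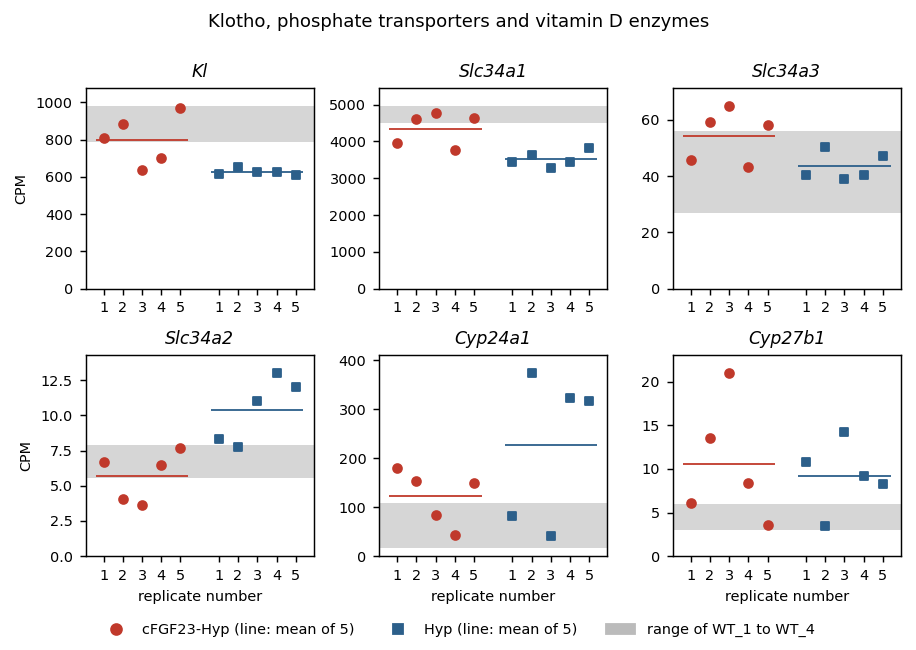
Levels of 6 genes of klotho, phosphate transport and vitamin D metabolism in CPM on the scale of all 15 libraries (axes start at 0) against replicate number, with cFGF23-Hyp as circles, Hyp as squares, a line at each group's mean of 5 and a grey band for the range of WT_1 to WT_4. Cyp24a1 spreads widely within both groups, and Slc34a2 separates them.

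Slc34a2, a cotransporter better known from lung and intestine, went the other way. It was at 6.81, 4.09, 3.65, 6.59 and 7.76 CPM in cFGF23-Hyp, against 8.42, 7.82, 11.2, 13.2 and 12.2 CPM in Hyp, with no overlap (-0.87 ± 0.23, SE; edgeR adjusted p = 0.346; DESeq2 adjusted p = 0.0387). Slc20a1 and Slc20a2, broadly expressed phosphate transporters, averaged 40.5 ± 1.9 and 60.6 ± 8.01 CPM in cFGF23-Hyp, against 40.6 ± 3.08 and 63.9 ± 6.35 CPM in Hyp (SD, n = 5 each). Ank, a membrane protein of pyrophosphate export, was at 7.45 to 12.7 CPM in cFGF23-Hyp and 12.7 to 15 CPM in Hyp, without overlap before rounding (-0.28 ± 0.14, edgeR adjusted p = 0.607). Vitamin D enzymes varied widely between mice and overlapped between the groups. Cyp24a1, which degrades active vitamin D, was at 184, 156, 84.9, 43.1 and 151 CPM in cFGF23-Hyp, against 82.4, 377, 41.6, 328 and 320 CPM in Hyp. Its log2 change was -0.89 ± 0.55 (SE, edgeR adjusted p = 0.642). Cyp27b1, which makes active vitamin D, was at 3.61 to 21.1 CPM in cFGF23-Hyp and 3.5 to 14.5 CPM in Hyp (0.19 ± 0.44, adjusted p = 0.892). The log2 change of Cyp27b1 was -0.19 ± 0.40 without cFGF23-Hyp_3. Of the 28 tested genes of phosphate and vitamin D handling 16 were positive, the median was 0.03, and 0 were called by edgeR in any of the 4 library sets.

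Lists of inflammation, injury and matrix genes had medians below 0, with 0 members called by edgeR with all libraries. The NF-kB and cytokine list had 6 of 28 genes positive (median -0.24), with Relb at 5.1 to 6.45 CPM in cFGF23-Hyp and 6.28 to 9.97 CPM in Hyp (edgeR adjusted p = 0.503). Lcn2, whose secreted product marks tubular injury, was at 1.69, 1.23, 2.03, 2.1 and 0.863 CPM in cFGF23-Hyp, against 2.55, 2.24, 2.06, 2.77 and 4.43 CPM in Hyp, so only the lowest Hyp value fell inside the treated range (-0.83 ± 0.29, adjusted p = 0.476). Havcr1, which encodes the injury marker KIM-1, was at 24.5 to 63.6 CPM in cFGF23-Hyp and 23.6 to 38.3 CPM in Hyp (adjusted p = 0.638), and the injury list had 8 of 24 genes positive (median -0.06, and -0.16 without cFGF23-Hyp_3). Neither Tnf (up to 0.354 CPM) nor Ccl2 (up to 0.841 CPM) had enough reads to be tested.

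Among genes of B and plasma cells 1 of 12 was positive and the median log2 change was -0.64, the lowest among lists with 10 or more tested genes, and -0.47 without cFGF23-Hyp_5 and -1.06 without cFGF23-Hyp_3. Igha, the heavy chain of IgA, was at 83.4, 52.9, 153, 24.9 and 102 CPM in cFGF23-Hyp, against 132, 107, 287, 193 and 224 CPM in Hyp, with overlap (-1.18 ± 0.40, SE; edgeR adjusted p = 0.471). Jchain, which joins secreted IgA and IgM, was at 7.15 to 33.8 CPM in cFGF23-Hyp and 27.3 to 77.8 CPM in Hyp. The list's 21 genes summed to 261 to 440 CPM in cFGF23-Hyp and 353 to 815 CPM in Hyp. Ighg2b passed without cFGF23-Hyp_5 (edgeR adjusted p = 0.0487) at 0.112 to 0.21 CPM in the other 4 treated libraries and 0.493 to 1.31 CPM in Hyp, a difference that rests on few reads.

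Of the fibrosis and matrix genes 6 of 48 were positive, with a median of -0.25 that was -0.15 without cFGF23-Hyp_5 and -0.10 without cFGF23-Hyp_3 and cFGF23-Hyp_5. Col15a1, a basement membrane collagen chain, was at 14.3, 15.7, 7.8, 13.2 and 12.7 CPM in cFGF23-Hyp, against 18.2, 18.9, 16.2, 21.3 and 19.9 CPM in Hyp, with no overlap (-0.56 ± 0.16, SE; edgeR adjusted p = 0.380). Col1a1, the main fibrillar collagen chain, was at 13.6 to 37.7 CPM in cFGF23-Hyp and 25.3 to 30.3 CPM in Hyp (adjusted p = 0.796), and Tgfb1 averaged 12.2 ± 3.99 and 12.8 ± 1.37 CPM. Endothelial markers had 2 of 24 positive (median -0.28), and Sox17, an arterial factor, was at 8.39 to 10.7 CPM in cFGF23-Hyp and 11.6 to 15 CPM in Hyp (-0.46 ± 0.11, edgeR adjusted p = 0.300; DESeq2 adjusted p = 0.0297). Summed endothelial markers were 466 CPM in cFGF23-Hyp_5, 616 to 760 CPM in the other cFGF23-Hyp libraries and 692 to 874 CPM in Hyp. Podocyte markers had 4 of 18 positive (median -0.20, and -0.10 without cFGF23-Hyp_3), with Podxl, a surface sialomucin, at 124 to 151 CPM in cFGF23-Hyp and 152 to 210 CPM in Hyp (adjusted p = 0.487).

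**Figure D5:**
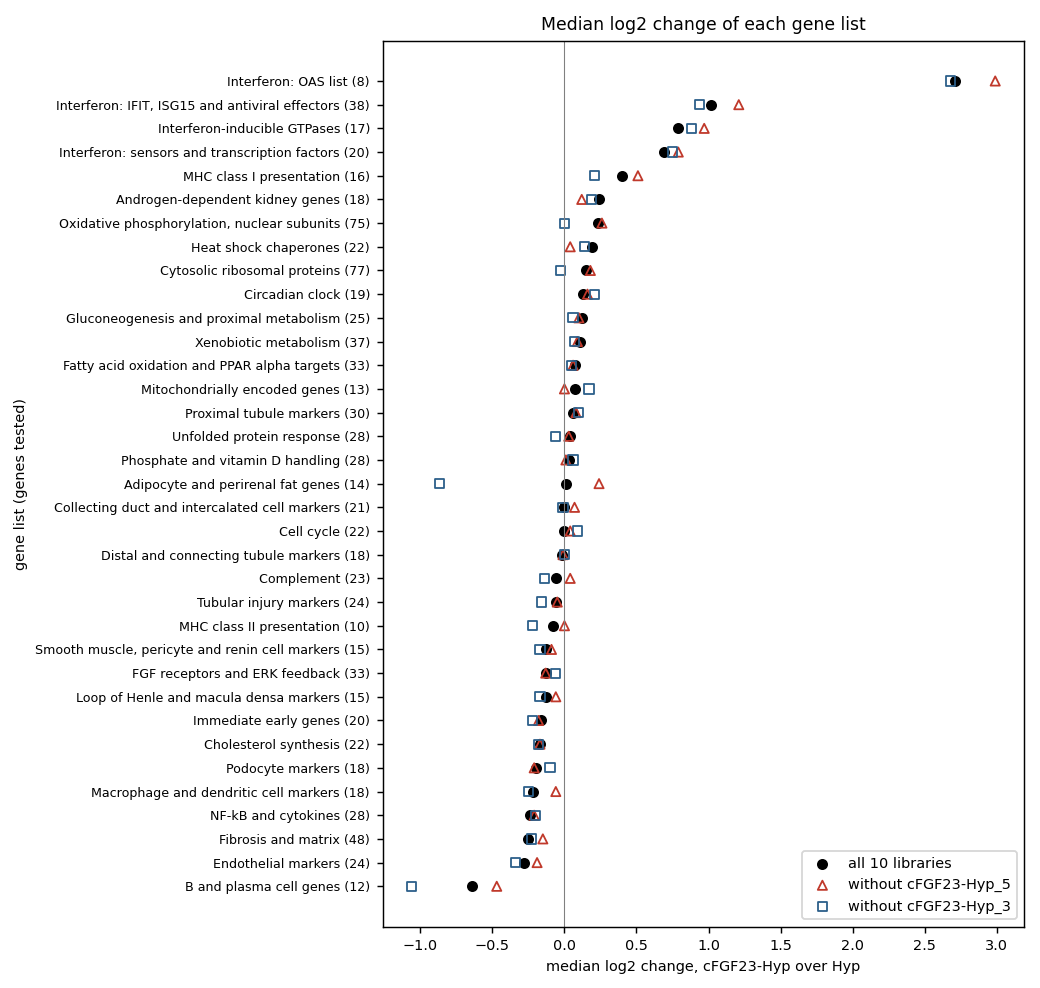
Median log2 change of cFGF23-Hyp over Hyp (x axis) for each gene list with 10 or more tested genes, and for the 8 genes of the OAS list, with all 10 libraries (filled circles), without cFGF23-Hyp_5 (triangles) and without cFGF23-Hyp_3 (squares). Oxidative phosphorylation is at 0.23 with all libraries and -0.00 without cFGF23-Hyp_3.

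The lists of oxidative phosphorylation and ribosomal protein genes followed 1 library, cFGF23-Hyp_3. Nuclear genes of oxidative phosphorylation had 73 of 75 positive with a median of 0.23, but 37 of 75 and a median of -0.00 without cFGF23-Hyp_3. Their summed level was 32961 CPM in cFGF23-Hyp_3, 19285 to 21413 CPM in the other cFGF23-Hyp libraries and 19435 to 21678 CPM in Hyp. Cytosolic ribosomal protein genes had 65 of 77 positive (median 0.15), and 26 of 77 without that library (median -0.03). Across all genes tested, the log2 change correlated with gene length at rho = -0.208 with all libraries and 0.0452 without cFGF23-Hyp_3 (genes are not independent replicates).

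Markers of nephron segments had medians between -0.13 and 0.06. Loop of Henle and macula densa markers were at -0.13 with 3 of 15 positive, and at -0.06 without cFGF23-Hyp_5. Proximal tubule markers had a median of 0.06 with 19 of 30 positive, distal and connecting tubule markers -0.02 with 9 of 18, and collecting duct and intercalated cell markers -0.00 with 10 of 21. Calb1, a calcium-binding protein of the distal nephron, was at 292, 232, 420, 394 and 356 CPM in cFGF23-Hyp, against 204, 266, 200, 286 and 258 CPM in Hyp, with overlap (0.48 ± 0.16, SE; edgeR adjusted p = 0.471). Cholesterol synthesis had 3 of 22 positive (median -0.17).

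RNA of neighbouring tissues differed between libraries. Adrenal genes summed to 6.43 to 15.8 CPM in cFGF23-Hyp and to 1748 CPM in Hyp_4, against 6.42 to 7.49 CPM in the other Hyp libraries. Adipocyte genes summed to 311 to 1792 CPM in cFGF23-Hyp and 245 to 1751 CPM in Hyp, and their median log2 change of 0.01 was -0.87 without cFGF23-Hyp_3. Alb was at 3.18 to 7.34 CPM in cFGF23-Hyp and 5.87 to 39.5 CPM in Hyp, highest in Hyp_5. Their part in the results above was not tested.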

How the data were processed

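The authors deposited raw read counts per gene and library in 2 tables, 1 of them for cFGF23-Hyp against Hyp, and these counts are whole numbers. The tables also hold 40 further columns of per-sample values, which were not used, and the authors' own log2 fold changes and adjusted p-values, quoted only as the authors' deposited values. Gene length came from the deposited table. Per the labels' protocols, total kidney RNA went into the NEBNext Ultra kit, with no statement on strand, and the submitters' processing notes name mm10. The sources used here do not give the aligner, the counter, the annotation or the authors' test. Although the notes name mm10, deposited coordinates differ from GRCm38.p6. Bst2 spans 71986899 to 71990100 of chromosome 8 in the deposited coordinates, and its GRCm38.p6 promoter window is 71537423 to 71537722. Deposited coordinates were therefore not combined with the GRCm38.p6 promoters.

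Groups follow the sample titles. Of 28110 entries, 303 had no gene name and were left out (0.2188% to 0.3633% of counts). Any 2 libraries of a group differed beyond sampling noise, with chi-square over degrees of freedom of 8.23 or more. Counts of the 10 libraries were tested with edgeR 4.0.16 (quasi-likelihood F test, TMM scaling, filterByExpr) under R 4.3.3, and p-values were adjusted over all genes tested (Benjamini-Hochberg), with 0.05 as the threshold. The SE after a log2 change is its size over the square root of F. CPM uses TMM-scaled library sizes. WT levels come from a TMM scale over the 15 libraries (26823 genes in both tables, with identical Hyp counts). The scripts were tested on simulated data.

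The comparison, the 42 gene lists (1014 of 1028 symbols matched) and the genes named were chosen with earlier results of these data known, so lists are described by counts and medians. The rule for named genes took protein-coding genes averaging at least 1 on the log2 CPM scale: the 10 largest rises and falls among called genes (all libraries, or without cFGF23-Hyp_3 and cFGF23-Hyp_5), up to 4 genes by p-value from lists with a call and 2 from others, and a fixed set. Other genes, among them Ifng, Slc20a1, Slc20a2, Ank, Flrt3, Ighg2b, Tcf24, further interferon list members and paralogs of Ces1g and Nat8f2, were chosen after their values were seen. Alternatives were DESeq2 1.42.0, DESeq2's size factors, limma-voom (limma 3.58.1), other filters, WT libraries in the fit, the replicate number as a block, and each library left out. Some genes of the lists are not reported here.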

Additional observations from a re-analysis of the deposited data

Results flagged for a closer look

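In 190 sets of 5 values, each a named gene in cFGF23-Hyp or in Hyp, 14 had a highest or lowest library whose gap to the next was more than 0.71 of the range (Dixon's 95% value), and chance gives this in about 1 of 20 sets. The library labelled cFGF23-Hyp_5 was lowest for Irf1 at 8.31 CPM (10.2 to 10.8 in the other 4) and Nat8f2 at 34 CPM (64.9 to 72.3), and highest for Ighg2b at 0.706 CPM (0.112 to 0.21) and Synpr at 42.7 CPM (0.28 to 2.97). In cFGF23-Hyp_3, H2-K1 was at 77.8 CPM (31.1 to 38.3 in the others). In cFGF23-Hyp_2, Lmod1 was at 4.26 CPM (3.29 to 3.56) and the steroid synthesis gene Cyp11a1 at 1.62 CPM (0 to 0.0784). Hyp_4 had 276 CPM of Cyp11a1, which was at 0 in the other Hyp libraries, and 30.3 CPM of Col1a1 (25.3 to 26.7). Hyp_1 was lowest for Dnase1 at 470 CPM (618 to 629) and highest for Tcf24 at 36.2 CPM (33.6 to 34.2). In Hyp_3, Slfn2 was at 4.55 CPM (2.59 to 2.84) and Ifi202b at 0.623 CPM (1.3 to 1.54), and in Hyp_2, Fat2 was at 2.46 CPM (1.87 to 2).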

How the results depend on the processing

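With all 10 libraries the count of called genes was 0, and it stayed 0 with DESeq2's size factors, limma-voom, a filter of at least 1 CPM in 5 libraries, all 15 libraries in 1 fit and the replicate block. It was 99 with DESeq2, 1 without a filter, 1 with 14 libraries in 1 fit (WT_5 left out), and 51 without cFGF23-Hyp_3 and cFGF23-Hyp_5. Leaving out 1 library gave 0 to 43, with 43 without cFGF23-Hyp_5, 2 without cFGF23-Hyp_3 and 0 without each of the other 8. Without cFGF23-Hyp_5, edgeR called 43, against 123 with DESeq2, 11 with limma-voom, 25 with the WT libraries also in the fit, 67 with WT_1 to WT_4 also in the fit, and 3 with the replicate block. Leaving out a further library gave 19 (Hyp_1) to 85 (cFGF23-Hyp_4). The cause of these differences was not tested. Deviations from the group means did not go together in libraries of the same replicate number (r of -0.183 to 0.0797, 0 of 5 above 0.1). With 5 pairs and outlying libraries among them, this cannot exclude a pairing of the mice. Among values of single genes, 1668 kept their side of the threshold and 117 passed it only under an alternative. A change of sign to a value larger than its SE occurred in 0. Smaller changes of sign, as for Cyp27b1 without cFGF23-Hyp_3, count among the 1668. Of the list medians, 7 moved and 715 did not. Genes with few reads, such as Ighg2b, are limited by depth.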
